A study of Homo sapiens with 118 samples.

Results

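Gene expression at the middle concentration of scriptaid (C3, 44.46 µM) was compared with that at the lowest concentration (C1, 4.94 µM) in HepaRG cells. The comparison used the 6 libraries labelled with these groups, 3 per group, of 118 in the series. HepaRG is an established human line from a liver tumor that differentiates into hepatocyte-like and biliary-like cells, and the labels name its cell type as liver progenitor cells. Thawed differentiated cells were held in culture for 7 days, and all groups used here then received scriptaid daily for 72 h, 3 exposures in all. Replicates 1, 2 and 3 of every group came from HepaRG batches B326, B330 and B303. The other scriptaid groups were C2 (14.82 µM), C4 (60 µM) and C5 (94.5 µM), each with 3 libraries, and they entered the fit to give a shared estimate of the spread. None of the 118 libraries is labelled as a solvent control, so any change that scriptaid had fully made at C1 does not appear. Replicates were separate cell batches, each sampled once per group.

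Scriptaid is a hydroxamic acid that inhibits histone deacetylases, the enzymes that remove acetyl groups from histones and other proteins. Acetylated histones mark open chromatin, and inhibitors of these enzymes change the transcription of many genes in both directions. Hepatocytes secrete most plasma proteins, make bile acids, run the urea cycle and oxidise drugs with cytochrome P450 (CYP) enzymes, and their transcription factors keep these genes active. The CYP1 enzymes are a separate branch of the CYP family. They are the best-known targets of the aryl hydrocarbon receptor (AHR), which dimerises with ARNT and binds elements with the core GCGTG.

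The features are detector probes of TempO-Seq, an assay in which pairs of oligonucleotides are ligated on their target RNA and counted by sequencing. A feature is named by its gene, and a gene can have several. Levels are given as CPM (counts scaled to a common library size) on TMM-scaled library sizes, always in the order of batches B326, B330 and B303. The totals were 3211351, 4181109 and 3547058 counts at C1 and 2240959, 3181970 and 3542018 counts at C3. Changes are log2 of C3 over C1 from edgeR's quasi-likelihood fit, with the standard error after ±, and group means carry the SD of 3 libraries. A feature was called where the Benjamini-Hochberg adjusted p was under 0.05 over all 12790 features tested and the fold change was at least 1.5. Only differences of these features between groups are compared, never levels between features, because probes differ in efficiency.

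The promoters of 3 genes that recur below are shown first. Each is the stretch of 250 bases before the start of the gene in RefSeq (GRCh38.p14), written 5′ to 3′ on the gene's strand. CYP1A1 encodes the CYP1 enzyme with the largest rise (chr15:74725529-74725778, minus strand). AHSG encodes the plasma protein fetuin-A (chr3:186612810-186613059, plus strand), and CYP2C8 encodes a drug-oxidising enzyme (chr10:95069498-95069747, minus strand). Both of the latter fell. Capitals mark the letters GCGTG in CYP1A1, and in the others CAAAGTCCA, a sequence bound by the hepatocyte factor HNF4A, on either strand. GCGTG is only the core of an AHR element, and whether the marked stretch in CYP1A1 is such an element was not tested. The promoters were printed because they hold these letters.
CYP1A1: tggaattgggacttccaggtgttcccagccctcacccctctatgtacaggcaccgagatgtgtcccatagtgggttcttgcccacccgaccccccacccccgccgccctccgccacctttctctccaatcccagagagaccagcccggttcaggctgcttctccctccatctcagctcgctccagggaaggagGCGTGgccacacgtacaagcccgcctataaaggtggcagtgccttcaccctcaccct
AHSG: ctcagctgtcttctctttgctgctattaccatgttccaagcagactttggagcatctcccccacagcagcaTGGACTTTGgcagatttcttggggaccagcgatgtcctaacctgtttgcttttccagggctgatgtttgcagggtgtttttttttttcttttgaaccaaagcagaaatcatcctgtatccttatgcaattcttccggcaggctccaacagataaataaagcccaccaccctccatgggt
CYP2C8: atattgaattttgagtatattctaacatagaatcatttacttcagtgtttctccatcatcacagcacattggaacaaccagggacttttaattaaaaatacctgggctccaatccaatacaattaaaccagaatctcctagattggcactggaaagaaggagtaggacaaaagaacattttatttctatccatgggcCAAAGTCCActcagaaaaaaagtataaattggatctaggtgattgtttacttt
The marked letters begin 57 bases before the start in CYP1A1, 179 bases before it in AHSG and 53 bases before it in CYP2C8. Of all 27305 promoters of this length in the table, 31.9% held GCGTG and 0.293% held CAAAGTCCA. Among called features, 43 of 57 rising symbols and 76 of 106 falling symbols had a promoter in the table. That is under the 80% needed for a comparison of the sets, so no share is given for them. The promoter of CYP1A2, which also rose, held no GCGTG. Besides AHSG and CYP2C8, the promoter of AGXT2 held CAAAGTCCA, and no other promoter of a called symbol in the table did. A match of letters is a description and was not tested as a binding site.

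One library of the fit stood apart. C4 replicate 3 had 10223 features with at least 5 counts, against 11836 to 13224 in the other 14 scriptaid libraries, and a TMM factor of 0.653 against 0.949 to 1.08. It is in neither group compared, but it widens the shared estimate of the spread. Counts are therefore given with it and, as an alternative chosen after its values were seen, without it. Among the 3 batches, B326 (replicate 1) had the smallest response. Over the features called, the median change within it was 1.62 for those that rose and -1.66 for those that fell. In the other 2 batches these medians were 2.36 and 2.24, and -2.53 and -2.53.

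At C3 CYP1A1, CYP1A2 and CYP1B1 rose, and 54 features of liver function lists fell. Of the 12790 features tested, 171 were called, or 1.34%. Of these, 59 rose (0.461%) and 112 fell (0.876%), and they belong to 163 gene symbols. All 171 moved in the same direction within each of the 3 batches, and in all of them the 2 groups did not overlap. Groups that do not overlap differ in the same direction in every batch, so the first follows from the second. Neither is evidence beyond the call itself. Over all 12790 features tested, 3243 did not overlap. When C4 replicate 3 was omitted, 775 features were called of 13228 tested (5.86%), of which 290 rose (2.19%) and 485 fell (3.67%), and all 171 were among them. With the 6 libraries of C1 and C3 fitted alone, 797 of 11720 features were called (6.8%), 287 rising (2.45%) and 510 falling (4.35%), and 166 of the 171 were among them. With the HepaRG batch as a block, 262 were called, 76 rising and 186 falling, and 169 of the 171 were among them.

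The count of calls depended on which libraries were kept. C4 replicate 3 stayed in each fit that left out a single C1 or C3 library. Leaving out one C1 library at a time left 58, 79 or 65 calls for replicates 1, 2 and 3. Leaving out one C3 library gave 223 calls where it was replicate 1, 32 where it was replicate 2 and 31 where it was replicate 3. Without any library of batch B326 (replicate 1) 64 features were called. Without those of B303 (replicate 3), which include C4 replicate 3, the count was 459. With all libraries of batch B330 (replicate 2) left out, no feature passed in edgeR. Of 12326 features tested there, 465 had an unadjusted p under 0.05, fewer than evenly spread p-values would give. Of the 57 called features named by the fixed rule, 13 passed whichever of the 6 libraries was left out. Among these were both CYP1A1 features, CYP1A2_82402, CYP1B1, SERPINB2, DHRS2_15289, DHRS9 and FABP4, which rose, and RDH16, CYP7A1, ACSM2B and SERPIND1, which fell. The other 44 lost the call without at least one of the 6, and most often without C3 replicate 3 (42 features) or C3 replicate 2 (40 features).

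Single libraries also moved the sizes. Leaving out C3 replicate 1 made the log2 change of 24 named called features larger by 0.69 to 2.00, all of them features that fell. Leaving out C3 replicate 2 brought 7 closer to 0 by 0.61 to 0.75, among them CYP1B1 (4.00), DHRS2 (3.08) and SERPINB2 (3.46).

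**Figure D1:**
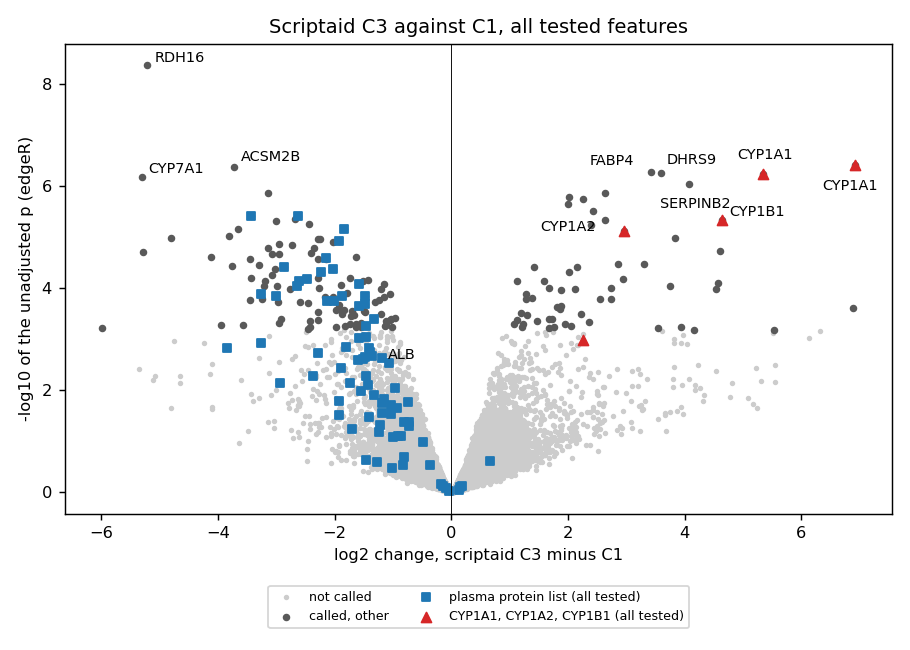
Each point is 1 of the 12790 features tested. The x axis is the log2 change of scriptaid C3 over C1 and the y axis is −log10 of the unadjusted edgeR p. Red triangles are the CYP1A1, CYP1A2 and CYP1B1 features, which lie to the right of 0, and blue squares are the plasma protein features, of which 75 of 79 lie to the left.

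CYP1A1 and CYP1B1 had the 3 largest rises among called features with a mean of at least 50 counts at C3. CYP1A1, which oxidises polycyclic aromatic hydrocarbons, was measured with 2 features. CYP1A1_10775 stood at 20.8, 21.9 and 21.1 CPM at C1 and 343, 968 and 1281 CPM at C3. The C1 libraries differed little, and every C3 library lay far above them, with replicate 1 lowest (log2 change 5.34 ± 0.72, adjusted p = 0.00121). CYP1A1_1698 stood at 0.639, 0.983 and 0.595 CPM at C1 and 26.7, 132 and 129.6 CPM at C3. It gave a log2 change of 6.92 ± 0.91 (adjusted p = 0.00121), but its C1 level rests on a mean of 2.67 counts per library, so the size of its change is less certain than that of the other feature.

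CYP1B1, a related enzyme that also hydroxylates estrogens, stood at 7.67, 3.69 and 7.14 CPM at C1 and 37.2, 262 and 158 CPM at C3 (log2 change 4.64 ± 0.73, adjusted p = 0.00314). The C3 libraries spread widely, again with replicate 1 lowest, but none reached down to C1. CYP1A2, the enzyme that clears caffeine, stood at 19.8, 23.6 and 21.7 CPM at C1 and 172, 128 and 206 CPM at C3 with the feature CYP1A2_82402 (log2 change 2.95 ± 0.48, adjusted p = 0.00384). Here replicate 1 was not the lowest C3 library. The other feature, CYP1A2_1699, stood at 4.8, 1.72 and 3.87 CPM at C1 and 16.2, 11.8 and 21.1 CPM at C3 and missed the threshold (log2 change 2.25 ± 0.58, adjusted p = 0.0639). Both CYP1A2 features thus had positive changes, and 1 of them was called.

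The receptor and its partners did not pass the test. AHR stood at 42.5, 54.1 and 67.9 CPM at C1 and 31, 41.7 and 37.9 CPM at C3 and the groups did not overlap, with the C3 libraries lower (log2 change -0.57 ± 0.45, adjusted p = 0.766). ARNT had overlapping groups, with 127, 109 and 99.1 CPM at C1 and 109, 112 and 80.9 CPM at C3 (log2 change -0.15 ± 0.24, adjusted p = 0.918). Of the other known AHR targets, TIPARP stood at 78.6, 89 and 85.7 CPM at C1 and 75.6, 101 and 66.4 CPM at C3 (log2 change -0.06 ± 0.27, adjusted p = 0.979). ALDH3A1_90141 stood at 437, 505 and 426 CPM at C1 and 628, 657 and 516 CPM at C3 (log2 change 0.40 ± 0.43, adjusted p = 0.857). The features of AHRR, the repressor of the receptor, had at most 4 counts in any of the 6 libraries and were not tested. The rise at C3 was therefore called for CYP1A1, CYP1A2 and CYP1B1 and for none of these other AHR genes, which were named after their values were seen.

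Across the 5 concentrations the level of CYP1A1_10775 was highest at C4 and lower at C5. Its mean was 21.3 ± 0.558 CPM at C1, 62.2 ± 35.7 at C2, 864 ± 478 at C3, 3061 ± 2208 at C4 and 293 ± 189.8 at C5. C4 replicate 3 stood at 5599 CPM against 2004 and 1580 CPM in its group mates, and without it the C4 mean was 1792 CPM. The feature CYP1A1_1698 was instead lowest in that library, at 62.7 CPM against 225 and 199 CPM. The step from C2 to C3 was called (3.79 ± 0.66, adjusted p = 0.0334), while the drop from C3 to C5 was not (-1.56 ± 0.61, adjusted p = 0.0667). For CYP1A2_82402 the drop from C3 to C5 was called (-2.01 ± 0.46, adjusted p = 0.00403), with means of 169 ± 38.7 CPM at C3 and 41.4 ± 30.6 CPM at C5. In the 35 groups of the other 7 inhibitors in the series, the highest group mean of CYP1A1_10775 was 106 CPM and the lowest 4.25 CPM. Both were groups of valproic acid, C4 and C1, so the level also differed between concentrations of that inhibitor. Vorinostat stood at 15.3 CPM at C1, 98.3 CPM at C3 and 12.2 CPM at C5. Tacedinaline C5, close in concentration to scriptaid C3, stood at 16.6 CPM. Scaled in the same way over the series, scriptaid stood at 20.5 CPM at C1 and 835 CPM at C3. The level of CYP1A2_82402 also differed between concentrations of another inhibitor. It stood at 5.15 ± 2.34 CPM at mocetinostat C1 and 54.7 ± 55.3 CPM at mocetinostat C2, against 20.97 CPM at scriptaid C1 and 163 CPM at scriptaid C3. For CYP1B1 the highest mean in the other inhibitors was 18.7 CPM (tacedinaline C5), against 147 CPM at scriptaid C3. Concentrations differed between inhibitors, and these values were set side by side without a test.

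**Figure D2:**
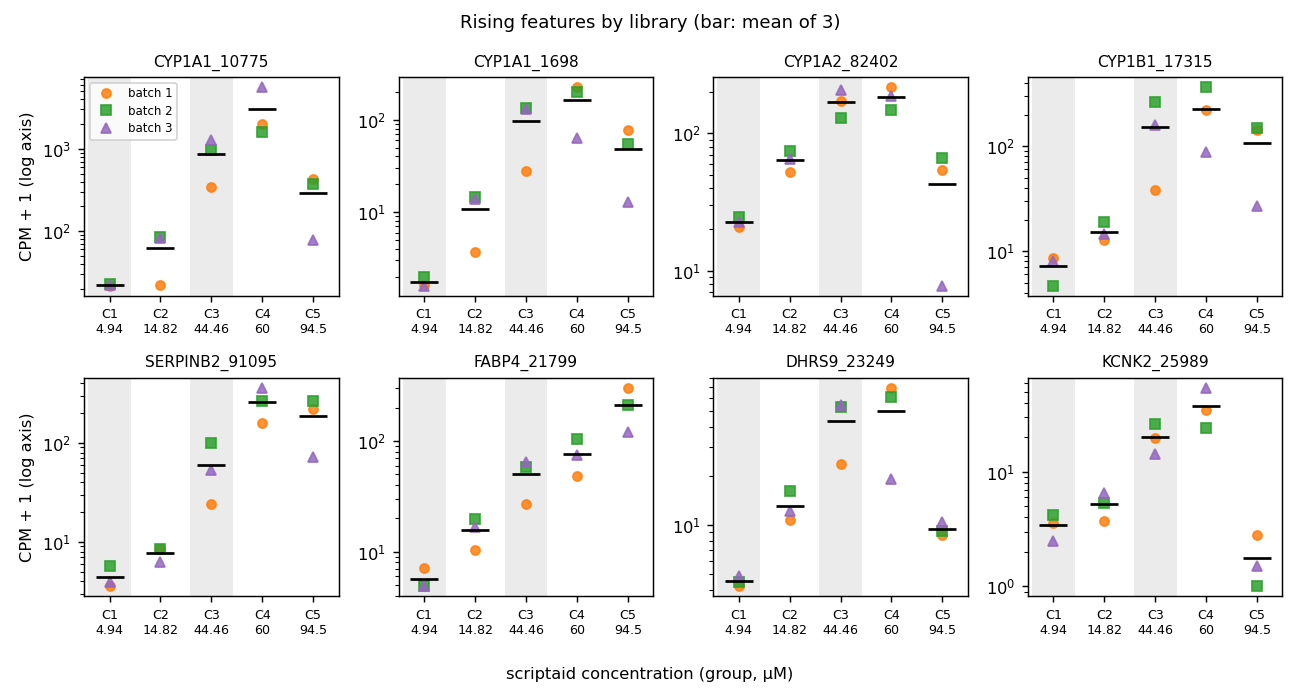
Levels of 8 rising features in the 15 scriptaid libraries, as CPM + 1 on a log axis against concentration in µM. Symbols mark the replicate numbers (batch 1, 2 and 3 stand for HepaRG batches B326, B330 and B303), black bars the mean of 3 libraries, and grey bands the C1 and C3 groups compared. In all 8 panels the C3 libraries lie above the C1 libraries. The means of DHRS9, KCNK2 and the CYP1 features are lower at C5 than at C3.

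SERPINB2, DHRS2, FABP4, DHRS9 and KCNK2 rose from levels of at most 6.07 CPM in each C1 library. SERPINB2, an inhibitor of plasminogen activators, stood at 2.56, 4.67 and 2.98 CPM at C1 and 23.2, 99.2 and 52.7 CPM at C3 (log2 change 4.07 ± 0.57, adjusted p = 0.00147). DHRS2, a short-chain dehydrogenase known to respond to deacetylase inhibitors, stood at 4.16, 1.23 and 3.57 CPM at C1 and 22.3, 75.5 and 27.4 CPM at C3 (log2 change 3.83 ± 0.64, adjusted p = 0.0047). For both, the C3 libraries differed several-fold among themselves, with replicate 2 highest and replicate 1 lowest. FABP4, the fatty acid carrier of adipocytes, stood at 6.07, 3.93 and 3.87 CPM at C1 and 25.8, 57.7 and 64.3 CPM at C3 (log2 change 3.42 ± 0.46, adjusted p = 0.00121). DHRS9, which oxidises retinol and steroids, stood at 3.2, 3.44 and 3.87 CPM at C1 and 22.7, 51.8 and 53.5 CPM at C3 (log2 change 3.60 ± 0.48, adjusted p = 0.00121). KCNK2, a two-pore potassium channel, stood at 2.56, 3.19 and 1.49 CPM at C1 and 18.8, 25.2 and 13.2 CPM at C3 (log2 change 2.95 ± 0.58, adjusted p = 0.0132). In FABP4 and DHRS9, replicate 1 was again the lowest C3 library, whereas in KCNK2 it lay between the others.

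These genes parted at the highest concentration. FABP4 rose further from C3 to C5 (2.09 ± 0.40, adjusted p = 9.92e-04), as did DHRS2 (2.76 ± 0.54, adjusted p = 0.00127) and SERPINB2 (1.66 ± 0.47, adjusted p = 0.0146). DHRS9 fell over the same step (-2.35 ± 0.45, adjusted p = 0.00111), and so did KCNK2 (-4.68 ± 0.71, adjusted p = 1.42e-04). Of the 59 features called as rising at C3, 20 rose further and 14 fell from C3 to C5, where 9.94% of all tested features rose and 15% fell. The C3 libraries enter both comparisons, so these counts are not independent of the first.

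Several lists of genes outside liver function held single risers. Among the globins and fetal or germline genes 1 of 12 tested features rose. This was HBG1, a fetal globin whose near-identical copy HBG2 may share its reads, at 2.24, 0.737 and 1.49 CPM at C1 and 8.75, 11.8 and 23.2 CPM at C3 (log2 change 3.31 ± 0.61, adjusted p = 0.00889). Among the neuronal genes 1 of 20 rose. It was SYT11, a synaptotagmin, which stood at 0.32, 0 and 0.298 CPM at C1 and 0.875, 7.1 and 4.22 CPM at C3 and was at most 3 counts in every C1 library, so its rise is given as at least 4.71-fold (adjusted p = 0.0499). The call was lost with DESeq2 size factors (adjusted p = 0.0554) and with thinning to the smallest total (0.0556), and the feature did not pass the filter with the 6 libraries alone. The neuronal list otherwise stayed mostly below the filter, with 42 of its 62 features not tested. Without C4 replicate 3, 2 features rose in each of these lists.

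Among the NRF2 targets and metallothioneins 3 of 26 features rose and none fell, with a median change of 0.42 against 0.01 over all features tested. In the fit lacking C4 replicate 3, 9 of 27 rose. MT2A, a metal-binding metallothionein with close paralogs, stood at 165, 122 and 68.5 CPM at C1 and 310.5, 648 and 585 CPM at C3 (log2 change 2.12 ± 0.43, adjusted p = 0.016). SRXN1, which repairs oxidised peroxiredoxins, stood at 149, 147 and 133 CPM at C1 and 292, 409 and 445 CPM at C3 (log2 change 1.42 ± 0.26, adjusted p = 0.00939). AKR1C2, an aldo-keto reductase that can share reads with AKR1C1, stood at 396, 468 and 501 CPM at C1 and 855, 1101 and 1388 CPM at C3 (log2 change 1.29 ± 0.30, adjusted p = 0.0339). In all 3 genes the C3 libraries lay above every C1 library, by a smaller factor than in the CYP1 genes.

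The largest group of fallers was made of hepatocyte genes. The 9 lists of liver functions held 3.01% of all tested features, 48.2% of the features that fell (54 of 112) and 13.6% of those that rose (8 of 59). The markers of hepatocytes had 8 falling features of 21 tested and none rising, with a median change of -1.41. All 21 changes were below 0, and 15 of the 21 were called without C4 replicate 3. The summed level of these markers was 54572 to 60457 CPM in the C1 libraries and 17887 to 35839 CPM in the C3 libraries. Fewer hepatocyte-like cells and less of these RNAs per cell cannot be told apart in bulk lysates.

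The other cell types that a HepaRG culture could hold were read beside this. The biliary and progenitor markers summed to 455 to 625 CPM at C1 and 429 to 539 CPM at C3, with 0 of 9 tested features called and EPCAM and CFTR at 0 in all 6 libraries. Of the 9 changes, 7 were below 0 and 2 above, with a median of -0.37. The means at C1 and C3 were 197 and 113 CPM for MMP7, 242 and 221 CPM for ANXA4, and 25.6 and 30.5 CPM for SOX9. SPP1 stood at 17.3, 20.4 and 15.8 CPM at C1 and 41.5, 68.1 and 55.1 CPM at C3 (log2 change 1.62 ± 0.41, adjusted p = 0.0571), and it was called with the batch as a block (adjusted p = 0.0412) and without C4 replicate 3 (adjusted p = 0.00112). The stellate cell and fibroblast markers summed to 216 to 277 CPM and 238 to 280 CPM, with 0 of 11 called and COL1A2 and THY1 at 0. Others of that list were present, with means of 84.1 CPM at C1 and 122 CPM at C3 for LUM, 25.0 and 30.2 CPM for PDGFRB, and 36.7 and 29.5 CPM for ACTA2. The endothelial markers reached at most 28.8 CPM at C1 and 35.6 CPM at C3, with 2 of 17 features tested, neither called, and LYVE1 and TIE1 at 0 in all 6 libraries. The 2 PECAM1 features had group means between 0 and 2.16 CPM. Those of macrophages reached at most 51.1 CPM at C1 and 34.0 CPM at C3, with 3 of 16 tested, none called, and CD163, MARCO and PTPRC at 0.

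Bile acid genes included the largest fall among called features with a mean of at least 50 counts at C1. CYP7A1, the rate-limiting enzyme of bile acid synthesis, stood at 75.8, 61.7 and 52.7 CPM at C1 and 3.5, 0.296 and 1.32 CPM at C3 (log2 change -5.31 ± 0.72, adjusted p = 0.00121). ABCG8, one part of the transporter that exports sterols into bile, stood at 92.1, 67.6 and 86.3 CPM at C1 and 14.9, 0.592 and 7.64 CPM at C3 (log2 change -3.46 ± 0.62, adjusted p = 0.0074). Both were low in all C3 libraries, with replicate 1 highest. In the bile acid list as a whole, 2 of 35 tested features fell, with a median change of -0.58, and without C4 replicate 3, 9 of 36 fell and 1 rose. The cholesterol synthesis list had 0 of 29 features called, a median of -0.51 and a lowest adjusted p of 0.237, and 6 of 29 fell without C4 replicate 3.

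RDH16, a retinol dehydrogenase of liver, had the lowest p of all features tested. It stood at 170.4, 129.5 and 167 CPM at C1 and 4.81, 2.96 and 4.74 CPM at C3, with the replicates close in both groups (log2 change -5.22 ± 0.51, adjusted p = 5.59e-05). Its mean was 49.1 ± 36.7 CPM at C2, and the step from C2 to C3 was called (-3.54 ± 0.49, adjusted p = 0.00997). From C3 to C5 it did not pass the test (0.79 ± 0.52, adjusted p = 0.28). PLA2G12B, which loads lipid onto lipoprotein particles, stood at 22.4, 24.1 and 21.7 CPM at C1 and 1.75, 0 and 0.79 CPM at C3 (log2 change -4.81 ± 0.81, adjusted p = 0.0047). SLC22A7, an organic anion transporter of hepatocytes, stood at 21.1, 13.3 and 9.23 CPM at C1 and 0.875, 0 and 0.263 CPM at C3, at most 3 counts in each C3 library, and was at least 14.6-fold lower (adjusted p = 0.00657). PLA2G12B and SLC22A7 had no count in C3 replicate 2. SLC5A9, a sugar transporter, stood at 25.3, 19.9 and 19.6 CPM at C1 and 5.25, 0 and 0.79 CPM at C3 (log2 change -3.57 ± 0.85, adjusted p = 0.0449), and with counts thinned to the smallest total the call was lost (adjusted p = 0.0725).

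Several drug-metabolising enzymes fell while the CYP1 genes rose. In the CYP list 4 of 29 tested features rose, all from CYP1A1, CYP1A2 and CYP1B1, and 4 fell, CYP2E1 and CYP2C8 among them. The median was -0.85, and without C4 replicate 3, 5 of 31 rose and 7 fell. CYP2C8, whose promoter is printed above, stood at 188, 195 and 297 CPM at C1 and 49.8, 5.33 and 9.75 CPM at C3 (log2 change -3.43 ± 0.67, adjusted p = 0.013). Genes of the CYP2C family are similar in sequence and may share reads.

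CYP2E1, the ethanol-inducible enzyme, stood at 182, 81.8 and 93.8 CPM at C1 and 26.7, 3.26 and 4.48 CPM at C3 (log2 change -3.44 ± 0.73, adjusted p = 0.0213). CYP3A4, the most broadly acting drug oxidase of liver, did not pass the test without a block. Its feature CYP3A4_88797 stood at 412, 336 and 292 CPM at C1 and 334, 59.2 and 70.1 CPM at C3. C3 replicate 1 overlapped the C1 range while the other 2 libraries lay below it (log2 change -1.17 ± 0.56, adjusted p = 0.479). With the batch as a block both CYP3A4 features were called as falling, CYP3A4_88797 with -1.59 (adjusted p = 0.0286) and CYP3A4_90076 with -1.41 (adjusted p = 0.0468). From C3 to C5 CYP3A4_88797 fell (-5.47 ± 0.74, adjusted p = 5.18e-05).

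Among the other drug metabolism enzymes 6 of 49 features fell and 1 rose, with a median of -0.56, and without C4 replicate 3, 14 of 52 fell and 1 rose. ADH4, a class II alcohol dehydrogenase, stood at 104, 86.5 and 90.2 CPM at C1 and 15.3, 2.66 and 3.16 CPM at C3 (log2 change -3.80 ± 0.63, adjusted p = 0.0047). ADH1B, which oxidises ethanol and can share reads with ADH1A and ADH1C, stood at 1083, 806 and 751 CPM at C1 and 284, 127 and 146 CPM at C3 (log2 change -2.25 ± 0.38, adjusted p = 0.0047). The 2 features of ADH1A gave -2.40 ± 0.43 and -2.29 ± 0.38, and both were called. UGT1A9, a glucuronidation enzyme that shares exons with other UGT1A genes, gave a log2 change of -2.29 ± 0.45 (adjusted p = 0.013).

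Plasma proteins formed the list with the most calls. Of 79 tested features 22 fell (27.8%, against 0.876% of all features tested) and none rose. The median change was -1.46, with medians of -1.02 in batch B326, -1.69 in B330 and -1.66 in B303. When C4 replicate 3 was omitted, 54 of 79 fell. The summed level of the list was 90179 to 104035 CPM at C1 and 29870 to 57675 CPM at C3.

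SERPIND1, the thrombin inhibitor heparin cofactor II, stood at 749.6, 495 and 521 CPM at C1 and 109, 32.3 and 23.4 CPM at C3 (log2 change -3.43 ± 0.53, adjusted p = 0.00312). Coagulation factor VII, encoded by F7, stood at 34.8, 15 and 37.5 CPM at C1 and 6.12, 1.78 and 1.58 CPM at C3 (log2 change -3.27 ± 0.68, adjusted p = 0.019). HRG, a histidine-rich glycoprotein of plasma, stood at 73.2, 50.9 and 53 CPM at C1 and 12.7, 3.26 and 6.59 CPM at C3 (log2 change -3.01 ± 0.63, adjusted p = 0.0200). In each of them every C1 library was higher than every C3 library, and C3 replicate 1 was the highest at C3. AHSG, whose promoter is printed above, stood at 54, 39.8 and 36.3 CPM at C1 and 11.8, 2.07 and 4.48 CPM at C3 (log2 change -2.87 ± 0.54, adjusted p = 0.00939). ITIH1, a hyaluronan-binding inhibitor subunit, gave a log2 change of -2.64 ± 0.53 (adjusted p = 0.0153). ALB, the most abundant plasma protein, stood at 21282, 20078 and 18446 CPM at C1 and 11478, 6176 and 4134 CPM at C3, a drop that missed the threshold (log2 change -1.46 ± 0.37, adjusted p = 0.058). When C4 replicate 3 was omitted, it was called (-1.47 ± 0.24, adjusted p = 0.000202), as it was with the batch as a block (-1.55, adjusted p = 0.00954).

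**Figure D3:**
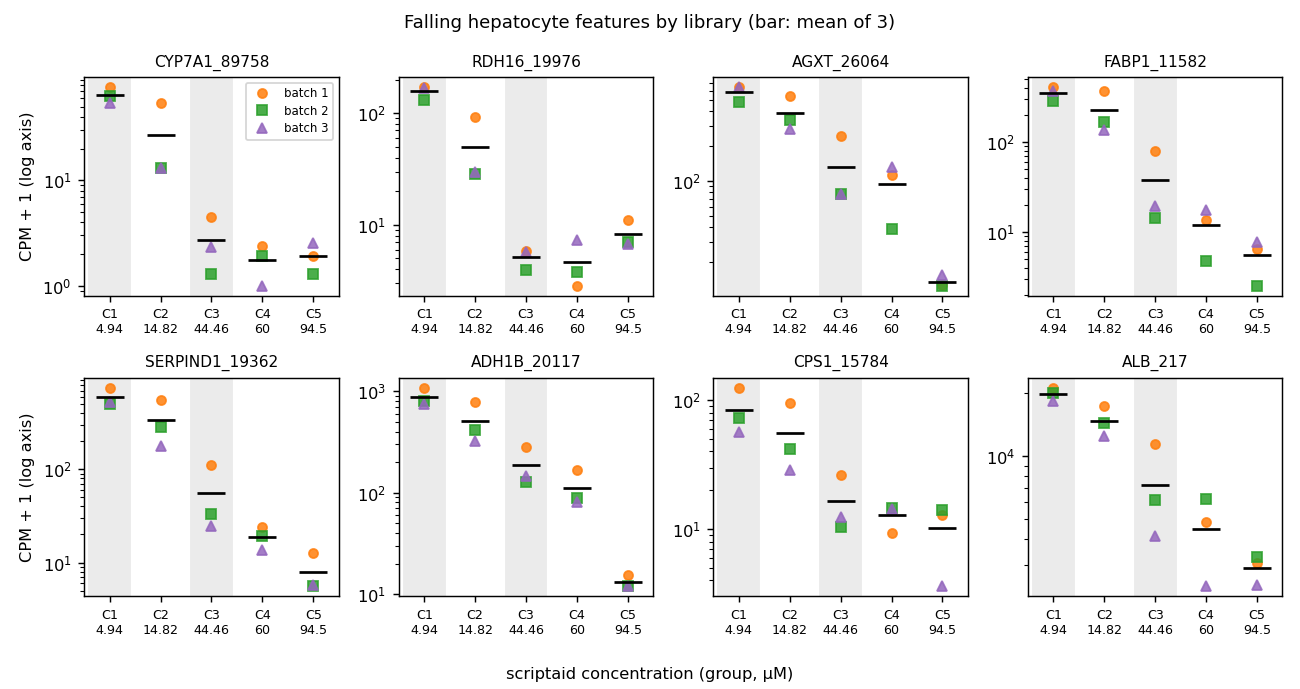
Levels of 8 hepatocyte features in the 15 scriptaid libraries, as CPM + 1 on a log axis against concentration in µM, with symbols, bars and bands as in the plot of rising features. The C3 libraries lie below the C1 libraries in all 8 panels. Replicate 1 (circles) is the highest C3 library in each, and ALB missed the threshold.

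Of 47 tested features of amino acid and urea cycle enzymes, 9 fell and none rose, with a median of -0.90. Without C4 replicate 3, 17 of 48 fell. CPS1, which starts the urea cycle, stood at 124, 71 and 55.7 CPM at C1 and 25.4, 9.47 and 11.3 CPM at C3 (log2 change -2.46 ± 0.53, adjusted p = 0.0227). ARG1, which ends it, stood at 116, 90.2 and 105 CPM at C1 and 33.7, 5.92 and 7.64 CPM at C3 (log2 change -2.77 ± 0.56, adjusted p = 0.016). AGXT, which detoxifies glyoxylate in peroxisomes, stood at 642, 481 and 643 CPM at C1 and 244, 76.1 and 75.9 CPM at C3 (log2 change -2.16 ± 0.45, adjusted p = 0.0200). All 3 enzymes were lower in every C3 library than in any C1 library. AGXT2, its mitochondrial counterpart, stood at 89.8, 86.5 and 84.8 CPM at C1 and 29.7, 4.74 and 1.84 CPM at C3 (log2 change -2.92 ± 0.68, adjusted p = 0.0387). C3 replicate 1 lay far above the other C3 libraries, and without it the log2 change was -4.73. GLDC of the glycine cleavage system gave a log2 change of -2.03 ± 0.34 (adjusted p = 0.00499).

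Fatty acid and lipid genes held 6 falling features and 1 rising feature, FABP4, of 48 tested, with a median of -0.40. In the fit lacking C4 replicate 3, 13 of 49 fell and 2 rose. FABP1, the fatty acid carrier of liver, stood at 409, 283 and 373 CPM at C1 and 78.3, 13.3 and 18.2 CPM at C3 (log2 change -3.30 ± 0.61, adjusted p = 0.00891). The liver and adipocyte carriers thus moved in opposite directions. ACSM2A and ACSM2B are near-identical acyl-CoA synthetases whose reads may be split. ACSM2B stood at 187, 208 and 278 CPM at C1 and 33.7, 5.62 and 12.9 CPM at C3 (log2 change -3.72 ± 0.49, adjusted p = 0.00121), and ACSM2A gave a log2 change of -3.66 ± 0.59 (adjusted p = 0.0037). HAO2, a peroxisomal hydroxy acid oxidase, stood at 577, 461 and 474 CPM at C1 and 120.3, 12.1 and 34.5 CPM at C3 (log2 change -3.20 ± 0.63, adjusted p = 0.0135).

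Glucose metabolism held called features in both directions. ALDOC, the brain aldolase, stood at 7.35, 12.5 and 7.74 CPM at C1 and 26.7, 37.9 and 37.4 CPM at C3 (log2 change 1.87 ± 0.41, adjusted p = 0.0254). G6PC, named G6PC1 in current annotation and the last step of glucose release, stood at 86, 44.7 and 47 CPM at C1 and 10.1, 5.03 and 6.85 CPM at C3 (log2 change -3.03 ± 0.57, adjusted p = 0.0098). Of 28 tested features in the list 2 fell and 1 rose, with a median of -0.10. With C4 replicate 3 left out, 5 of 29 fell and 3 rose.

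Among hepatocyte transcription factors 3 of 42 tested features fell and 1 rose, with a median of -0.52. When C4 replicate 3 was omitted, 5 fell and 1 rose. NR1I3, the xenobiotic receptor CAR, had both of its features called as falling, and 1 of these calls depended on the processing. NR1I3_90298 stood at 48.9, 29.5 and 30.4 CPM at C1 and 8.75, 2.96 and 1.84 CPM at C3 (log2 change -3.07 ± 0.59, adjusted p = 0.0122). NR1I3_87852 was at most 3 counts in each C3 library and was at least 9.31-fold lower (adjusted p = 0.0449), a call lost with thinned counts (adjusted p = 0.0681). NR5A2, which drives CYP7A1 transcription, stood at 95.6, 75.9 and 90.8 CPM at C1 and 40.7, 16.3 and 17.4 CPM at C3 (log2 change -1.84 ± 0.41, adjusted p = 0.0288). The riser was NR1D1, a repressor of the circadian clock, at 0, 0 and 2.08 CPM at C1 and 9.18, 16.6 and 23.7 CPM at C3 (log2 change 4.54 ± 0.92, adjusted p = 0.016). Its counts at C1 all came from replicate 3, and the log2 change was 8.59 without that library and 3.91 without C1 replicate 2.

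**Figure D4:**
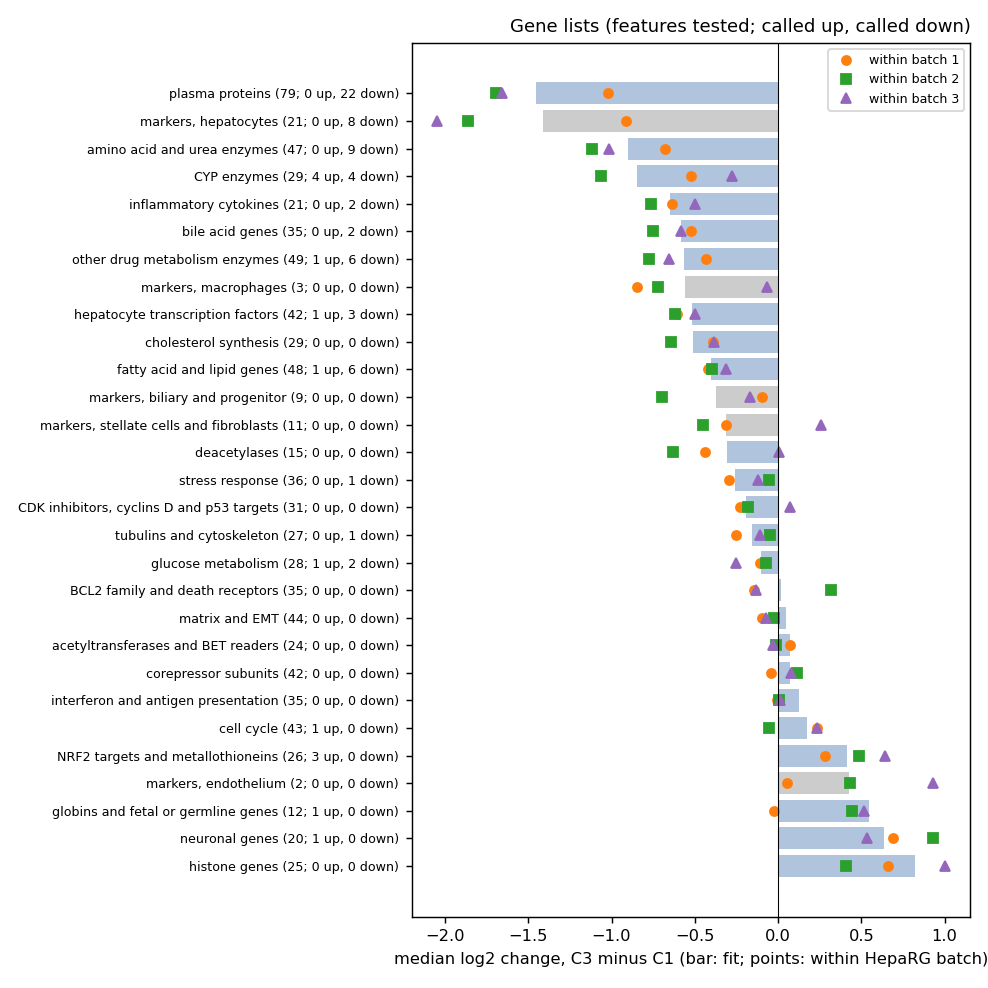
Median log2 change of C3 over C1 for each of the 29 gene lists. Bars are the medians from the fit (grey for cell type markers, blue for the others) and symbols the medians within each HepaRG batch. The numbers beside each name give the features tested and those called up and down. The plasma protein and hepatocyte marker lists have the lowest medians. The histone gene list has the highest, although none of the features in it was called.

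Falls were also called among secreted inflammatory signals. CXCL1 and CXCL2 are chemokines that attract neutrophils. CXCL1 stood at 207, 210.4 and 186 CPM at C1 and 84.4, 46.2 and 45.1 CPM at C3 (log2 change -1.79 ± 0.37, adjusted p = 0.0185). CXCL2 stood at 518, 531 and 566 CPM at C1 and 277, 134 and 164 CPM at C3 (log2 change -1.49 ± 0.33, adjusted p = 0.0303). They were the 2 called features of 21 tested in the cytokine list, and 5 fell without C4 replicate 3. Outside that list S100A8 and S100A9 were called as rising, and they are given after their values were seen. TNFSF14, a ligand of the TNF family, stood at 33.6, 28.3 and 35.1 CPM at C1 and 0.875, 0.296 and 3.95 CPM at C3 (log2 change -4.13 ± 0.74, adjusted p = 0.00733), with a log2 change of -5.79 without C3 replicate 3. LSP1, an actin-binding protein of leukocytes, stood at 44.8, 48.4 and 70.2 CPM at C1 and 3.5, 4.44 and 3.95 CPM at C3 (log2 change -3.76 ± 0.70, adjusted p = 0.00939), while PTPRC, the pan-leukocyte marker, was at 0 in all 6 libraries. HSPA5, the main chaperone of the endoplasmic reticulum, was the 1 called feature of 36 in the stress list, at 247, 247 and 309.6 CPM at C1 and 129.9, 115 and 126 CPM at C3 (log2 change -1.12 ± 0.27, adjusted p = 0.0449). Its call was lost when any 1 of the 6 libraries was left out.

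The lists of the drug's targets and of chromatin genes held no called feature. None of the 15 tested features of the deacetylases was called, and their lowest adjusted p was 0.309. HDAC1 gave a log2 change of -0.29 ± 0.38, HDAC2 0.29 ± 0.34, HDAC3 0.30 ± 0.29 and HDAC8 -0.16 ± 0.36. HDAC6, the cytoplasmic deacetylase of tubulin, was measured with 4 features, of which the one with the lowest p (HDAC6_90749) stood at 702, 734 and 818 CPM at C1 and 518, 366 and 339.6 CPM at C3 (log2 change -0.88 ± 0.34, adjusted p = 0.309). The C3 libraries of this feature lay below the C1 libraries. Without C4 replicate 3, 2 of the 4 HDAC6 features were called as falling. The corepressor subunits (0 of 42) and the acetyltransferases and BET readers (0 of 24) had medians of 0.07 and 0.07, and without that library 1 corepressor feature rose and 3 fell.

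The list of histone genes had the highest median of all lists, 0.82. Of its 25 tested features 20 were above 0 and none was called, the lowest adjusted p being 0.0522. In the fit lacking C4 replicate 3, 14 of 26 rose and none fell. With the batch as a block HIST3H2BB rose (1.68, adjusted p = 0.0251). The summed level of the list was 2558 to 2988 CPM at C1 and 3838 to 4612 CPM at C3. HIST1H1B, a linker histone named H1-5 in current annotation, stood at 119.6, 105 and 89.3 CPM at C1 and 229.6, 173 and 297 CPM at C3 (log2 change 1.16 ± 0.33, adjusted p = 0.104). It fell from C3 to C5 (-2.96 ± 0.35, adjusted p = 1.51e-05). Outside this list the histone genes HIST2H3D and HIST2H4B were called as rising at C3, and they are given after their values were seen. Histone genes are near-identical in part, so single members are uncertain.

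In the cell cycle list 1 of 43 tested features rose and none fell, and 5 rose without C4 replicate 3. The riser was E2F8, a repressor of the E2F family that acts in S phase, at 51.5, 52.1 and 58.9 CPM at C1 and 119, 134 and 123 CPM at C3 (log2 change 1.21 ± 0.29, adjusted p = 0.0459). With DESeq2 size factors the call was lost (adjusted p = 0.0576), and it was also lost when any 1 of the 6 libraries was left out. It fell from C3 to C5 (-2.85 ± 0.32, adjusted p = 7.50e-06). CDKN1A, the cyclin-dependent kinase inhibitor p21, had at most 8 counts in any of the 6 libraries and was not tested. CCDC80, a matrix protein, stood at 38.4, 41.5 and 28 CPM at C1 and 13.1, 20.7 and 22.1 CPM at C3 and did not pass the test (log2 change -0.94 ± 0.34, adjusted p = 0.273). GSN, the actin-severing protein gelsolin, was the 1 called feature of 27 in the cytoskeleton list (log2 change -1.06 ± 0.25, adjusted p = 0.0394). No feature was called in the lists of interferon and antigen presentation (0 of 35), matrix (0 of 44), cell death (0 of 35) and p53 targets (0 of 31). With C4 replicate 3 left out, 1, 3, 1 and 2 features of these lists rose, and 0, 5, 2 and 1 fell. The counts cover only the members of the lists. Genes outside them were called at C3, among them HLA-DMB, which rose, and GBP3, TNC and ADAMTS2, which fell. These genes are given after their values were seen. With the batch as a block COL18A1 of the matrix list fell (-1.25, adjusted p = 0.0153).

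The neighbouring concentrations place the change between C1 and C3. At C2 no feature was called against C1 in edgeR, and 0 were called in DESeq2. Of 12790 features tested in edgeR, 164 had an unadjusted p under 0.05, fewer than evenly spread p-values would give. Between C2 and C3, 8 features were called (0.0625%). RDH16, ACSM2B and CYP7A1 fell over that step (0.0235% of all tested). In the other direction (0.0391%), CYP1A1_10775, SERPINB2, CPA4, BEX5 and HLA-DMB rose, of which the last 3 are outside the rule for named genes and are given after their values were seen. CPA4, a carboxypeptidase, had a log2 change from C2 to C3 of 2.11 ± 0.37, adjusted p = 0.0334. For BEX5 it was 1.71 ± 0.30, adjusted p = 0.0334, and for HLA-DMB, of the antigen-loading complex, 2.71 ± 0.42, adjusted p = 0.0253. When C4 replicate 3 was omitted, 219 features were called between C2 and C3, and still none between C1 and C2.

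From C3 to C5, 3190 features were called (24.9%), 1271 rising and 1919 falling. Of the 112 features that fell at C3, 66 fell further and 8 rose, a count that shares the C3 libraries with the first. ADH1B, for example, had means of 879.8 ± 178 CPM at C1, 186 ± 85.6 at C3 and 12.1 ± 2.05 at C5 (-3.93 ± 0.43, adjusted p = 5.31e-06). GLDC was among those that turned (log2 change from C3 to C5 1.07 ± 0.34, adjusted p = 0.028). The means of CYP7A1 were 1.7 ± 1.64 CPM at C3 and 0.923 ± 0.629 CPM at C5, a step that did not pass the test (-0.87 ± 0.99, adjusted p = 0.565).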

How the data were processed

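Lysates of HepaRG cells were profiled with the TempO-Seq human whole transcriptome panel. The table deposited by the authors holds unnormalised read counts for each detector probe in 22069 rows. The 22068 rows with a value in every library were used, and the last row, which lacked values, was left out, and further rows may be missing after it. The submitters' processing notes name bcl2fastq 2.20.422, fastp 0.23.2, STAR 2.7.10b and DESeq2 1.38.0, with no roles given. The probe annotation and genome build are not given in the sources used here. A different HepaRG experiment is described in the paper linked to the series, and no setting was taken from it.

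Counts of the 15 scriptaid libraries were fitted in edgeR 4.0.16 (R 4.3.3) with 5 groups, filterByExpr, TMM scaling and the quasi-likelihood F test, without a block. The standard error was taken as the log2 change over the square root of F. A prior count of 2 was used for log2 CPM within batches. A feature at 3 counts or fewer in every library of a group was given a bound, its fold computed against 3 counts per library. Totals ranged from 1061359 to 5250260 counts over the 118 libraries, and reads carried no molecular identifiers. The procedure was tested on simulated data.

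Named features were, per direction, the 10 called features with the largest change that had at least 50 mean counts in the higher group and moved the same way in all 3 batches. Added to these were up to 5 called features per list, up to 2 further features of lowest p in lists with fewer than 2 called, and 10 genes fixed by name. AHR, ARNT, AHRR, TIPARP and ALDH3A1 were outside this rule and were added after their values were seen. Some features that the rule names are not reported here. The members and lists were chosen with earlier results of these data known. Replicate numbers pair the samples because the labels tie each to a HepaRG batch. The deviations of C1 and C3 libraries correlated at 0.0324, 0.0700 and 0.0953 within batches and at -0.0724 to 0.00886 between them. Alternatives were the batch as a block, the 6 libraries alone, no filter, other scalings, DESeq2 1.42.0, thinning and left-out libraries.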

Additional observations from a re-analysis of the deposited data

How the results depend on the processing

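With the replicate block for HepaRG batch, 262 features were called between C1 and C3 (186 falling), 169 of them among the 171, and 56 between C2 and C3. It moved no other count of calls by over 1.5 times and took no call from a named feature, and both CYP3A4 features, ALB, COL18A1, HIST3H2BB and SPP1 gained the call. With only the 6 libraries compared there were 797 calls (287 rising, 510 falling), 8 between C1 and C2 and 142 between C2 and C3. Without the filter on low counts there were 409 (122 rising, 287 falling), 4 and 154. The DESeq2 Wald test called 355 (132 rising, 223 falling) and 86 between C2 and C3, and thinning to the smallest total left 1 between C2 and C3. DESeq2 size factors gave 160 calls and upper-quartile scaling 185. Named calls were lost with the former for E2F8 and SYT11, and with thinning for NR1I3_87852, SLC5A9 and SYT11. Without C4 replicate 3 there were 775 (290 rising, 485 falling), 219 between C2 and C3 and 4842 between C3 and C5. Leaving out single libraries or whole batches gave 0 to 459 calls between C1 and C3, 0 to 165 rising and 0 to 294 falling, 0 to 141 between C2 and C3 and 1019 to 4006 between C3 and C5. The cause was not tested. The log2 change of TIPARP_7116, near 0 in the fit (-0.06), ranged from -0.25 to 0.0805 with single libraries or batches left out, and changed sign without replicate 3 (0.0805) and without C3 replicate 3 (0.0639). No other named feature changed direction under any alternative. Levels near 3 counts cannot show a fall, which limits the low features at C3. All p-values rest on 3 libraries per group.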
